A study of Homo sapiens with 6 samples.

Results

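The MYC network is the set of transcription factors that bind DNA together with MAX. Its 10 genes measured here were the MYC proteins (MYC, MYCN and MYCL1), their shared partner MAX, the repressors MXD1, MXD3, MXD4 and MXI1, and the large MAX-binding repressors MNT and MGA. They were found in the table by their gene symbols, a step that uses no measured value, and are 10 of the 34811 genes in the count table. The set of genes itself was chosen with earlier results of these data known. Expression was measured by RNA-seq in OVCAR-3 cells, a long-established line from a human ovarian cancer. OV3/SCR cells carried a scrambled shRNA and OV3/COX1KD cells an shRNA against COX-1, the cyclooxygenase that makes prostaglandin precursors from arachidonic acid. Both were stable lines made with the same type of vector, selected with puromycin and grown in the same serum-containing medium, and no further treatment was named. Each condition was 1 clone, sampled at 3 independent passages, so the effect of the shRNA and the difference between clones cannot be told apart, and p-values describe the spread between passages of 1 clone.

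The 6 libraries held 25291505 to 27391538 counts each. PTGS1, the gene for COX-1, was at 73.3% of its OV3/SCR level in OV3/COX1KD cells (log2 fold change -0.45, standard error 0.0570, edgeR FDR = 1.3e-06), so its mRNA was reduced and not absent. All 8 ovarian and epithelial markers were above 3 counts in every library, with a summed level of 4657 to 4687 CPM (normalized read counts, made comparable between libraries with edgeR's TMM factors) in OV3/SCR and 6004 to 6182 CPM in OV3/COX1KD. They did not move together: PAX8, a transcription factor of serous ovarian tumors, fell to 59.0% of its OV3/SCR level (edgeR FDR = 4.3e-13) and the keratin KRT7 fell by 0.14 on the log2 scale (edgeR FDR = 1.0e-04), while MUC16, the CA125 antigen, rose 2.56-fold (edgeR FDR = 4.4e-16) and CDH1, KRT18, KRT8, WT1 and EPCAM rose 1.32-fold to 1.81-fold. Of 7 leukocyte, endothelial and fibroblast markers, 4 in OV3/SCR and 3 in OV3/COX1KD were above 3 counts in every library of that condition, and their summed level was 12.3 to 12.8 and 8.11 to 8.82 CPM. COL1A1, a fibroblast collagen, made up most of that sum and fell from 10.1 ± 0.232 CPM in OV3/SCR to 5.93 ± 0.518 CPM in OV3/COX1KD (SD, n = 3, edgeR FDR = 5.3e-07). The part of these markers in the results below was not tested.

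MYC, MYCN and MYCL1 are basic helix-loop-helix-zipper proteins that bind DNA only when paired with MAX, and the pair activates transcription from the E-box, the hexamer CACGTG. The MXD proteins and MNT pair with MAX at the same hexamer and recruit the SIN3 histone deacetylase corepressor, and MGA carries MAX into a Polycomb complex. Cells commonly shift from MYC towards MXD proteins when they stop dividing and differentiate, and MYC is often amplified or overexpressed in ovarian cancer.

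E-boxes in the promoters of the network's own genes are shown here because they are the sequence its proteins read. RefSeq promoter windows on GRCh38.p14, 300 bases long from 250 bases before to 50 bases after a start site, were matched for 9 of the 10 genes and 14 start sites. CACGTG, which reads the same on both strands, was in 2 of the 14 windows, against 2548 of all 35116 windows (7.26%). Those 2 were the windows of MXD4, with the hexamer 238 bases before the start, and of MNT, 193 bases before it. The windows of MYCL1 (annotated as MYCL) and MXD1, the genes with the largest rise and the largest fall among the 10, did not hold it. The stretch from 250 to 101 bases before the start is given for these 4 genes, 5′ to 3′ on the strand of the gene, with CACGTG in capitals. It lies at chr4:2262210-2262359 (minus strand) for MXD4, chr17:2401161-2401310 (minus strand) for MNT, chr1:39902018-39902167 (minus strand) for MYCL1 and chr2:69914859-69915008 (plus strand) for MXD1.
MXD4: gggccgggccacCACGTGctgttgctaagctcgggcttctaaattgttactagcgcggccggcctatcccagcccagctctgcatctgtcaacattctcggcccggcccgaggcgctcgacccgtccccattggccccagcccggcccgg
MNT: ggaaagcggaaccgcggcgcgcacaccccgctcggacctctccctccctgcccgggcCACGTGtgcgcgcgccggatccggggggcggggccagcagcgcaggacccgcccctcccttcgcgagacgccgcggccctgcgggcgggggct
MYCL1: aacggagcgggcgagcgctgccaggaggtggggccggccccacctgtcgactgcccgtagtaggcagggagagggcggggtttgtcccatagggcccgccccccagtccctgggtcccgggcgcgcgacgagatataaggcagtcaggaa
MXD1: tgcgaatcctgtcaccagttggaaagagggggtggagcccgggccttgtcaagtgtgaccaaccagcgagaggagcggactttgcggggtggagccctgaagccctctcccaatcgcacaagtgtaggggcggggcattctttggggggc

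The 300-base windows of MXD4 and MNT were 72.3% and 76.0% G and C, and those of MYCL1 and MXD1 74.7% and 65.0%. The related hexamer CACGCG, searched on both strands and sharing no full match with CACGTG, was in 1 window each of MXD3, MXI1 and MGA, against 11.4% of all windows. These are matches of letters within the windows, and binding was not measured.

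The comparison of OV3/COX1KD with OV3/SCR asked which transcripts differ between cells with less and with more COX-1. MYC itself did not pass the test, while MYCL1 rose to 2.86-fold of its control level. Among the repressors, MXD1, MXD4 and MNT fell to 59.9%, 69.1% and 78.2% of control, whereas MXI1 and MGA rose 1.36-fold and 1.19-fold. MAX, MXD3 and MYCN did not pass the test. Thus 6 of the 10 genes passed an FDR under 0.01 in edgeR's quasi-likelihood test, 3 higher and 3 lower in OV3/COX1KD. Of all 17309 genes tested, 47.9% passed it, 25.8% higher and 22.1% lower, and among genes averaging a log2 CPM of 1 or more, a level that all 10 reached, the share was 57.7%. The share of the network that passed was therefore near the background. A log2 fold change beyond 0.5 at this FDR was reached by MYCL1, MXD1 and MXD4, 3 of 10 genes against 19.9% of all genes, and a fold change above 2.5 by MYCL1 alone, against 3.92% of all genes. The median log2 fold change was 0.016 over the 10 genes and -0.0087 over all genes tested.

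**Figure D1:**
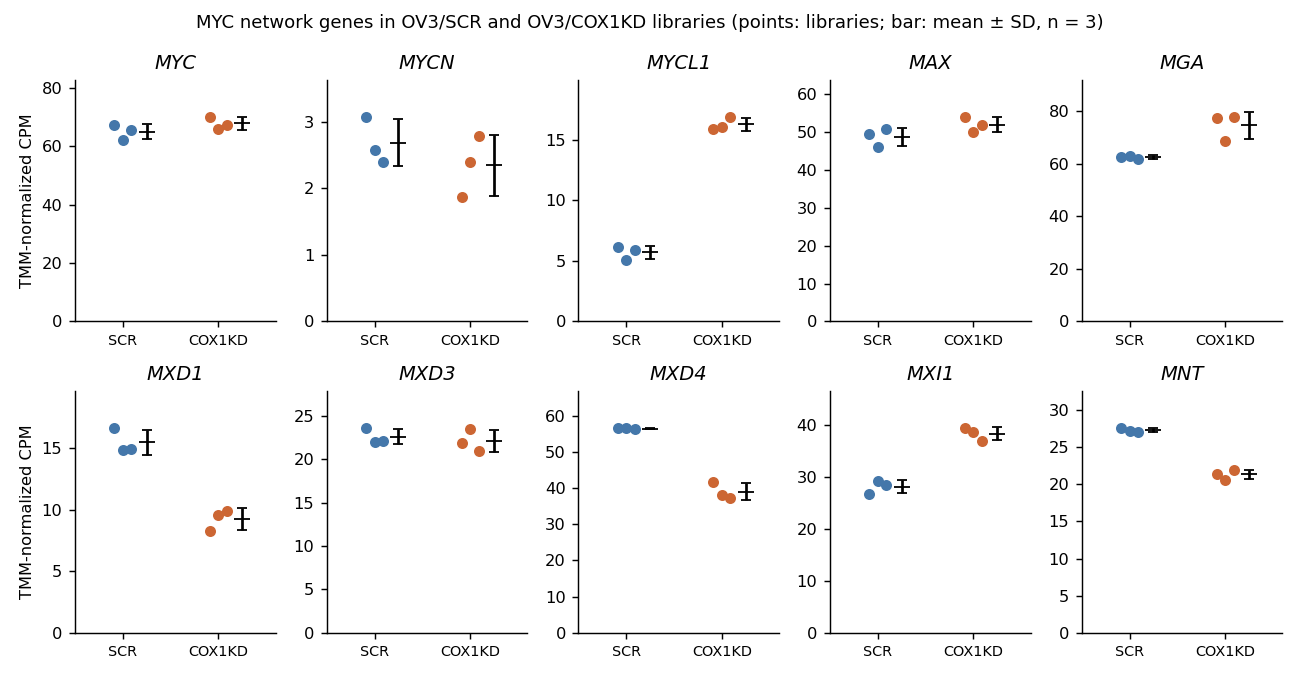
TMM-normalized CPM (y axes, each from 0) of the 10 network genes in OV3/SCR (blue) and OV3/COX1KD (orange) libraries; points are libraries, bars the mean ± SD of 3 libraries. MYCL1, MXI1 and MGA lie higher and MXD1, MXD4 and MNT lower in every OV3/COX1KD library than in every OV3/SCR library, and the points of MYC, MYCN, MAX and MXD3 overlap.

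MYC (ENSG00000136997, chromosome 8 of GRCh37 from 128747680 to 128755197, plus strand) drives growth and ribosome production in most dividing cells. It was counted 1794, 1620 and 1696 times in the OV3/SCR libraries and 1768, 1657 and 1796 times in the OV3/COX1KD libraries. The conditions overlapped, with 65.0 ± 2.62 CPM in OV3/SCR and 67.9 ± 2.11 CPM in OV3/COX1KD (SD, n = 3). The fold change was 1.04 with a 95% interval of 0.985 to 1.11 (edgeR FDR = 0.194), and its direction turned when libraries were scaled by total counts (log2 fold change -0.015 in place of 0.063). In these bulk libraries fewer cells that transcribe a gene and less RNA per cell cannot be told apart, for MYC as for the genes that follow.

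MYCL1 (ENSG00000116990, chromosome 1 from 40361100 to 40367928, minus strand) encodes L-MYC, first known from small-cell lung cancer. It had 163, 132 and 153 counts in OV3/SCR and 400, 403 and 451 counts in OV3/COX1KD. The lowest OV3/COX1KD library exceeded the highest OV3/SCR library, and the gap was far wider than the spread within either condition. Its level rose from 5.70 ± 0.558 to 16.3 ± 0.551 CPM (SD, n = 3), a log2 fold change of 1.52 ± 0.0842 (standard error, with an edgeR FDR of 8.2e-12) and a fold change of 2.86 with a 95% interval of 2.53 to 3.23. The antisense gene MYCL-AS1, which overlaps 4.55% of the MYCL1 exon bases, had no counts in OV3/SCR and 1 to 2 in OV3/COX1KD libraries, all under the floor of 3 counts.

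MYCN (ENSG00000134323, chromosome 2 from 16080672 to 16087129, plus strand) encodes N-MYC, known for its amplification in neuroblastoma. It was the scarcest of the 10 genes, with 82, 67 and 62 counts in OV3/SCR and 47, 60 and 74 counts in OV3/COX1KD. The libraries overlapped, at 2.68 ± 0.352 and 2.35 ± 0.457 CPM (SD, n = 3). A difference in MYCN was not detectable at this depth (log2 fold change -0.19, standard error 0.173, edgeR FDR = 0.360), since the 95% interval ran from 0.682-fold to 1.13-fold.

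MAX (ENSG00000125952, chromosome 14 from 65472892 to 65569413, minus strand), the shared dimer partner of the network proteins, was counted 1318, 1200 and 1311 times in OV3/SCR. In OV3/COX1KD it was counted 1361, 1251 and 1384 times. The conditions overlapped at 48.7 ± 2.41 and 52.0 ± 2.08 CPM (SD, n = 3), with a fold change of 1.07 and a 95% interval of 0.998 to 1.14 (edgeR FDR = 0.0904). Exons of FNTB, a farnesyltransferase subunit gene on the other strand, overlap 13.1% of the MAX exon bases. FNTB had a log2 fold change of 0.068 (edgeR FDR = 0.434).

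**Figure D2:**
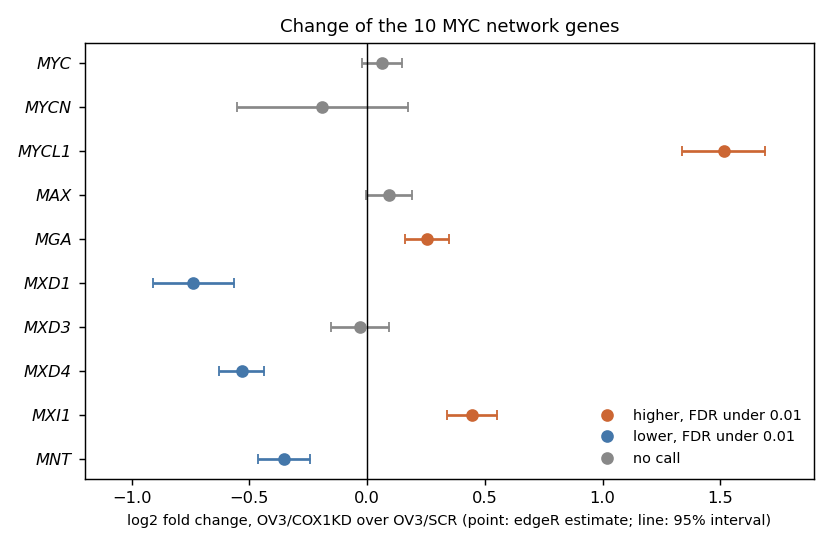
Log2 fold change of OV3/COX1KD over OV3/SCR (x axis) for the 10 network genes; points are edgeR estimates from 3 libraries per condition and lines their 95% intervals, orange for higher, blue for lower and grey for no call at an FDR under 0.01. MYCL1 at 1.52 lies apart from the others, which span -0.74 to 0.45.

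The 4 MXD genes went in different directions, with MXD1 and MXD4 lower, MXI1 higher and MXD3 without a call. MXD1 (ENSG00000059728, chromosome 2 from 70124820 to 70170077, plus strand) encodes MAD1, a MAX partner induced as cells differentiate. Its counts were 444, 387 and 387 in OV3/SCR and 208, 241 and 265 in OV3/COX1KD. The highest OV3/COX1KD library, at 9.95 CPM, was below the lowest OV3/SCR library, at 14.9 CPM. MXD1 fell from 15.5 ± 1.01 to 9.28 ± 0.891 CPM (SD, n = 3), a log2 fold change of -0.74 ± 0.0819 (standard error, with an edgeR FDR of 2.1e-07), and the 95% interval of the remaining level ran from 0.532-fold to 0.675-fold. SNRNP27, a spliceosome gene on the same strand whose exons cover 3.73% of those of MXD1, had a log2 fold change of -0.23 (edgeR FDR = 0.0130), and its part in the fall of MXD1 was not tested.

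MXD4 (ENSG00000123933, chromosome 4 from 2249159 to 2263836, minus strand) encodes MAD4, likewise a repressor. It had 1505, 1475 and 1453 counts in OV3/SCR and 1047, 953 and 996 counts in OV3/COX1KD. The OV3/SCR libraries lay within 56.2 to 56.6 CPM and the OV3/COX1KD libraries within 37.4 to 41.6 CPM, without overlap. MXD4 fell from 56.4 ± 0.201 to 39.0 ± 2.27 CPM (SD, n = 3), a log2 fold change of -0.53 ± 0.0453 (standard error, with an edgeR FDR of 4.7e-09).

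MXI1 (ENSG00000119950, chromosome 10 from 111967363 to 112047123, plus strand), the MXD member also called MXD2, is known as an antagonist of MYC that hypoxia can induce. Its counts were 713, 759 and 735 in OV3/SCR and 991, 967 and 983 in OV3/COX1KD. Each OV3/COX1KD library was above each OV3/SCR library. MXI1 rose from 28.1 ± 1.22 to 38.3 ± 1.27 CPM (SD, n = 3), a log2 fold change of 0.45 ± 0.0502 (standard error, with an edgeR FDR of 2.6e-07), opposite in sign to MXD1 and MXD4.

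MXD3 (ENSG00000213347, chromosome 5 from 176728462 to 176739758, minus strand), the MXD member associated with dividing cells, had 629, 574 and 572 counts in OV3/SCR and 551, 589 and 559 in OV3/COX1KD. These overlapped, at 22.6 ± 0.878 and 22.1 ± 1.28 CPM (SD, n = 3), and the 95% interval of the fold change was 0.898 to 1.07 (edgeR FDR = 0.677). Exons of RAB24 on the same strand and PRELID1 on the other strand overlap 19.5% and 24.2% of the MXD3 exon bases, so counts of MXD3 depend on how shared reads were assigned. RAB24 and PRELID1 had log2 fold changes of -0.29 (edgeR FDR = 0.0178) and -0.048 (edgeR FDR = 0.336).

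MNT and MGA, both large repressors that pair with MAX, moved in opposite directions. MNT (ENSG00000070444, chromosome 17 from 2287367 to 2304398, minus strand), which opposes MYC at shared targets in dividing cells, had 735, 709 and 698 counts in OV3/SCR and 539, 517 and 583 in OV3/COX1KD. All 3 OV3/COX1KD libraries were below all 3 OV3/SCR libraries. MNT fell from 27.3 ± 0.289 to 21.3 ± 0.632 CPM (SD, n = 3), a log2 fold change of -0.35 ± 0.0527 (standard error, with an edgeR FDR of 9.4e-06).

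MGA (ENSG00000174197, chromosome 15 from 41913332 to 42065279, plus strand), the scaffold of the Polycomb complex PRC1.6 and a gene inactivated in some tumors, was counted 1675, 1647 and 1598 times in OV3/SCR. It was counted 1949, 1719 and 2079 times in OV3/COX1KD. The lowest OV3/COX1KD library, replicate 2 at 68.6 CPM, stood below the 77.4 and 78.0 CPM of the other replicates but above all OV3/SCR libraries, which reached 63.2 CPM. MGA rose from 62.6 ± 0.719 to 74.7 ± 5.29 CPM (SD, n = 3), a log2 fold change of 0.25 ± 0.0452 (standard error, with an edgeR FDR of 7.3e-05). Without OV3/COX1KD replicate 2 the log2 fold change of MGA was 0.32. The spread of MGA in OV3/COX1KD, a coefficient of variation of 7.08%, was wider than the 2.29% that counting alone would give. In OV3/SCR it was 1.15% against 2.47%.

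Further noncoding genes whose exons overlap a member on the other strand were too scarce to be tested. CASC11, which overlaps 3.18% of the MYC exon bases, had 1 to 7 counts per library, and MYCNOS, which overlaps 3.56% of those of MYCN, had 2 to 7. ENSG00000259118 at MAX had 1 to 6 counts, and ENSG00000260814 and ENSG00000260926 at MGA had 2 to 14 and 0 to 3. Another 4 overlapping genes had no matching gene identifier in the count table. Of these, ENSG00000262456 overlaps 12.2% of the MNT exon bases and ENSG00000228417 3.47% of those of MXI1. CHURC1-FNTB, a protein-coding gene, overlaps 9.96% of those of MAX, and MIR4800, on the same strand, 1.16% of those of MXD4.

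To compare levels between genes, CPM were divided by the exon length of each gene in kb, from GENCODE 44 on GRCh37. This is an approximation, since the transcripts in use may cover only part of the annotated exons. On this scale MYC had the highest level of the network in both conditions, 10.6 ± 0.428 CPM per kb in OV3/SCR and 11.1 ± 0.346 CPM per kb in OV3/COX1KD (SD, n = 3). In OV3/SCR it was followed by MXD4 (8.21 CPM per kb), MAX (7.79), MXD3 (4.76), MXI1 (4.76), MNT (3.13), MGA (3.12), MXD1 (2.44), MYCL1 (1.15) and MYCN (0.974 CPM per kb). Of the neighbours in that order, MXD3 and MXI1, MNT and MGA, and MYCL1 and MYCN overlapped between libraries, and the other neighbours did not.

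In OV3/COX1KD the order was MYC, MAX (8.31 CPM per kb), MXI1 (6.48), MXD4 (5.68), MXD3 (4.67), MGA (3.72), MYCL1 (3.28), MNT (2.45), MXD1 (1.46) and MYCN (0.852 CPM per kb), and no neighbours in it overlapped. MXI1 had thus passed MXD4 as the MXD gene with the highest level, and MYCL1 had moved above MNT and MXD1. MXD4 was at 1.73 ± 0.0762 times the level of MXI1 in OV3/SCR and at 0.875 ± 0.0308 times in OV3/COX1KD (SD, n = 3). The ratio of MNT to MGA was 1.00 ± 0.0101 in OV3/SCR and 0.660 ± 0.0300 in OV3/COX1KD (SD, n = 3).

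**Figure D3:**
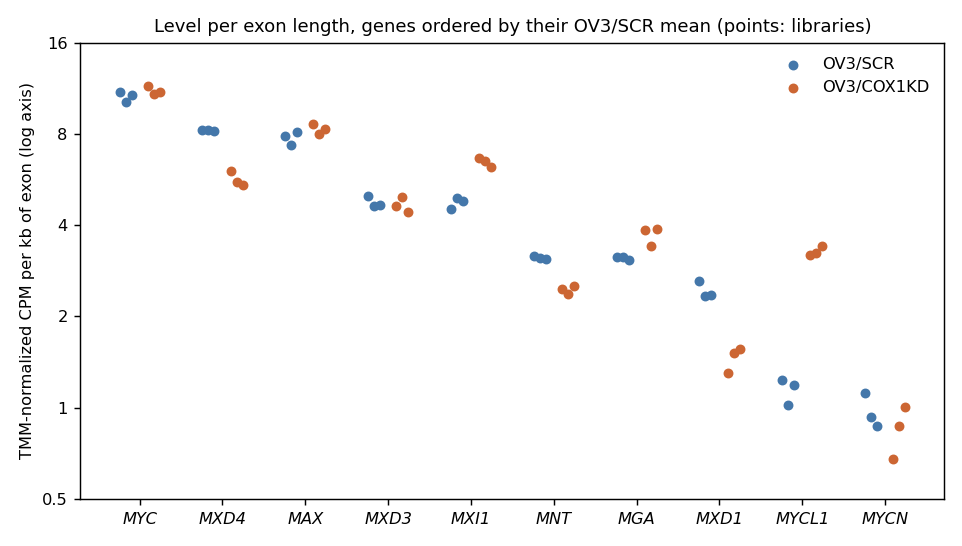
TMM-normalized CPM per kb of exon (y axis, log scale) of the 10 network genes, ordered by their mean in OV3/SCR; points are single libraries, blue for OV3/SCR and orange for OV3/COX1KD. MYC is highest and MYCN lowest in both conditions, and MYCL1 lies near MYCN in OV3/SCR and near MGA in OV3/COX1KD.

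Summed by role on the same scale, the 3 MYC genes gave 13.4, 12.1 and 12.8 CPM per kb in OV3/SCR and 15.4, 14.9 and 15.5 CPM per kb in OV3/COX1KD. MYCL1 made up 8.98 ± 0.495% of that sum in OV3/SCR and 21.5 ± 0.639% in OV3/COX1KD, and MYC 83.4 ± 0.843% and 72.9 ± 1.72% (SD, n = 3), so MYC stayed the main MYC transcript. The 4 MXD genes summed to 20.2 ± 0.165 CPM per kb in OV3/SCR and to 18.3 ± 0.528 CPM per kb in OV3/COX1KD, without overlap between libraries, with MXI1 at 23.6 ± 1.17% and 35.5 ± 0.280% of the sum (SD, n = 3). The summed MYC level divided by the summed MXD level was 0.633 ± 0.0281 in OV3/SCR and 0.835 ± 0.0356 in OV3/COX1KD (SD, n = 3). These sums are descriptions of mRNA and were given no test, because the genes in them were tested singly.

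The 3 genes whose log2 levels ran closest to those of MYC over the 6 libraries, after each gene was centred on its own mean, were TRIM23, EID2 and GINS1, with root mean square distances of 0.0136, 0.0171 and 0.0180 among 13011 genes. The 6 libraries are 3 passages of each clone, so these distances are a description over few points. MYC had no call, and counting alone would give it a coefficient of variation of 2.42% in OV3/SCR and 2.40% in OV3/COX1KD. These distances therefore do not show that the 3 genes vary with MYC.

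Genes near each member were read for changes that run along a stretch of chromosome. Within 2 Mb of MXD4, 46 genes averaging a log2 CPM of 1 or more were tested, and 31 were lower and 2 higher in OV3/COX1KD. Their median log2 fold change was -0.33, beside -0.53 for MXD4 itself. The part of this stretch in the change of MXD4 was not tested. Around MYCL1 the 30 such genes split into 9 higher and 5 lower with a median of 0.084 and a highest value of 0.70, below the 1.52 of MYCL1. Around MXD1 they were 11 higher and 6 lower of 29 (median 0.070), around MNT 9 higher and 12 lower of 44 (median 0.0010), around MXI1 3 higher and 4 lower of 10 (median -0.061), and around MGA 12 higher and 15 lower of 63 (median -0.040). For these 5 genes the median of the neighbours was thus within 0.1 of 0 on the log2 scale. MAX, MXD3 and MYCN had neighbour medians of 0.075 (17 genes), 0.056 (41 genes) and 0.040 (6 genes). Around PTGS1, the targeted gene, 20 of 31 such genes were higher and 2 lower, with a median of 0.28 beside -0.45 for PTGS1 itself. The part of that stretch in the level of PTGS1 was not tested.

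**Figure D4:**
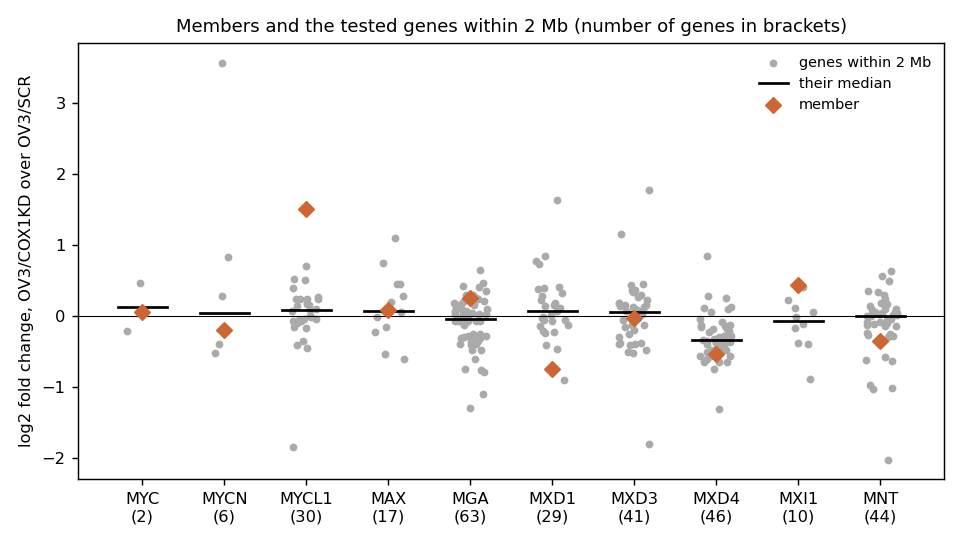
Log2 fold change of OV3/COX1KD over OV3/SCR (y axis) for each network gene (orange diamonds) and the tested genes within 2 Mb averaging a log2 CPM of 1 or more (grey points, number in brackets, bar for their median). The neighbours of MXD4 have a median of -0.33, while MYCL1 at 1.52 and MXD1 at -0.74 lie far from medians of 0.084 and 0.070.

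MYC lies in a gene-poor stretch in which 4 genes were tested within 2 Mb. Of these, 2 averaged a log2 CPM of 1 or more, FAM84B and PVT1, with a median log2 fold change of 0.13. FAM84B, now called LRATD2, was higher in OV3/COX1KD (log2 fold change 0.47, edgeR FDR = 3.0e-10). PVT1, the long noncoding RNA gene next to MYC at a distance of 51575 bases, had 696, 752 and 750 counts in OV3/SCR and 583, 671 and 603 in OV3/COX1KD. Its log2 fold change was -0.21 (standard error 0.0649, edgeR FDR = 0.00887), but the libraries of the conditions overlapped. The nearest tested gene on the other side, the scarce noncoding gene CASC8 at a distance of 253296 bases, had 12, 21 and 19 counts in OV3/SCR and 7, 9 and 5 in OV3/COX1KD (log2 fold change -1.26, standard error 0.374, edgeR FDR = 0.00700). The calls of both were lost in DESeq2 and in 4 of the 6 fits that left out a library (OV3/SCR 2, OV3/SCR 3, OV3/COX1KD 1 and OV3/COX1KD 3), with FDR of up to 0.057 for PVT1 and 0.043 for CASC8.

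Genes that work with the network were followed in 8 lists of 100 genes in all, and 98 of them were abundant enough to be tested. Among these, 31 were higher and 33 lower in OV3/COX1KD, or 65.3% with a call, and their median log2 fold change was -0.018. Of all genes averaging a log2 CPM of 1 or more, 57.7% had a call. By list the share was 58.3% for MYC cofactors and 44.4% for MGA partners. It was 60.0% each for the SIN3 corepressor, MYC protein turnover and other E-box factors, all to be read beside that background. Of the parallel MLX arm, which senses glucose through the partners of MLX, MLXIPL (ChREBP) rose from 4.29 ± 0.382 to 7.14 ± 1.20 CPM (SD, n = 3, log2 fold change 0.73, edgeR FDR = 5.2e-05). MLXIP (MondoA) fell by 0.20 on the log2 scale (edgeR FDR = 6.1e-04), and MLX had a log2 fold change of -0.058 (edgeR FDR = 0.330).

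Of 12 MYC cofactors, 3 were higher and 4 lower. ZBTB17, which encodes MIZ1 and tethers MYC to genes it represses, fell from 46.5 ± 0.395 to 31.3 ± 1.06 CPM (SD, n = 3, log2 fold change -0.57, edgeR FDR = 1.6e-09). KAT2A, the GCN5 histone acetyltransferase, fell by 0.48 on the log2 scale (edgeR FDR = 7.9e-10). TRRAP, the scaffold through which MYC recruits acetyltransferases, rose by 0.34 (edgeR FDR = 3.6e-04), a call that DESeq2 did not give (FDR = 0.031). Its libraries overlapped, with OV3/COX1KD replicate 2 at 134.6 CPM and OV3/SCR replicate 3 at 137.0 CPM.

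Of the 10 genes listed for the SIN3 corepressor used by MXD proteins and MNT, 5 were higher and 1 was lower, with a median of 0.11. The one that fell was SIN3B, a SIN3 scaffold, from 122.5 ± 6.11 to 92.4 ± 3.21 CPM (SD, n = 3, log2 fold change -0.41, edgeR FDR = 3.2e-08). SUDS3 and NCOR1, further corepressor genes of this list, rose by 0.29 and 0.28 on the log2 scale (edgeR FDR = 6.6e-07 and 1.7e-05).

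Among the 9 partners of MGA in PRC1.6, 2 were higher and 2 lower. TFDP1, the dimer partner of E2F proteins, rose from 77.1 ± 1.85 to 128.0 ± 0.745 CPM (SD, n = 3, log2 fold change 0.73, edgeR FDR = 4.4e-13). L3MBTL2, a chromatin reader, fell by 0.49 on the log2 scale (edgeR FDR = 1.1e-07). E2F6, the DNA-binding repressor of the complex, fell by 0.18 (edgeR FDR = 0.00708), but lost its call in 8 of 12 alternative settings, with FDR of up to 0.044.

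Genes acting on MYC protein stability, which these mRNA data do not measure, were 3 higher and 3 lower of 10. FBXW7, the ubiquitin ligase subunit that marks phosphorylated MYC for degradation, fell from 30.1 ± 1.94 to 21.8 ± 0.559 CPM (SD, n = 3, log2 fold change -0.47, edgeR FDR = 8.3e-07). SKP2, a ubiquitin ligase subunit that both degrades and activates MYC, rose by 0.45 on the log2 scale (edgeR FDR = 7.4e-09), and PPP2R5A, a subunit of the phosphatase that acts on MYC, rose by 0.53 (edgeR FDR = 4.1e-09).

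Of the other E-box factors with the same fold, 5 of 6 were tested, and 3 were lower. The remaining tested genes, USF2 and MITF, had log2 fold changes of 0.10 (edgeR FDR = 0.0177) and -0.093 (edgeR FDR = 0.616). TFE3 and TFEB, regulators of lysosome genes, fell by 0.47 and 0.62 on the log2 scale (edgeR FDR = 3.3e-06 and 0.00363), and USF1 fell by 0.25 (edgeR FDR = 1.6e-04). The call of TFEB was lost in the fits that left out OV3/SCR replicate 1, OV3/SCR replicate 3 and OV3/COX1KD replicate 3, with FDR of up to 0.027. Libraries of the 2 conditions also overlapped for TFEB.

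**Figure D5:**
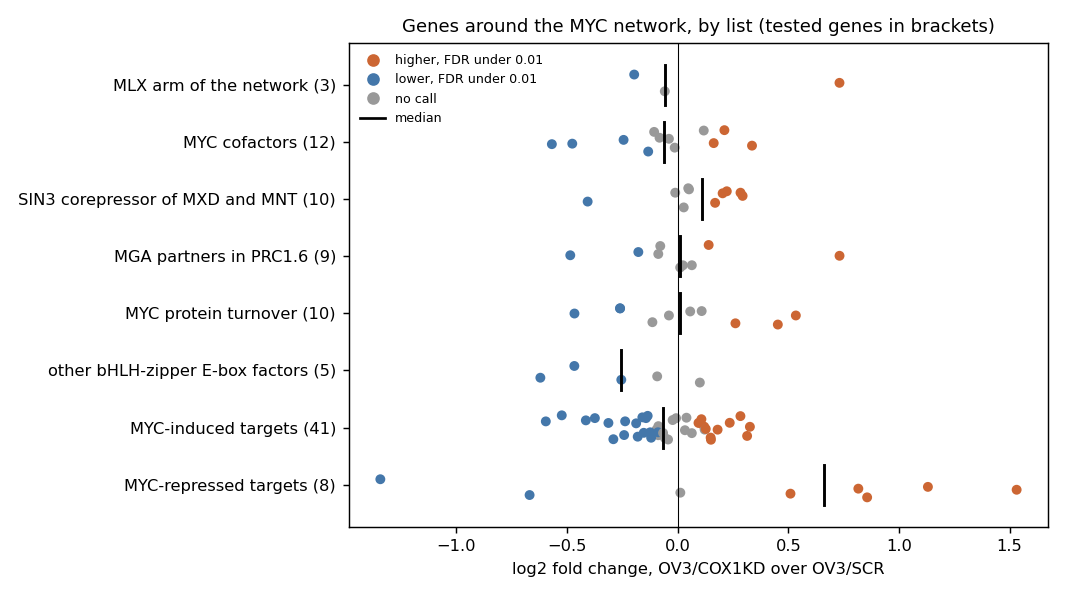
Log2 fold change of OV3/COX1KD over OV3/SCR (x axis) for the tested genes of 8 lists around the MYC network (number in brackets); points are genes, orange for higher, blue for lower and grey for no call at an FDR under 0.01, and bars are medians. MYC-induced targets lie on both sides of 0 with a median of -0.066, and of 8 MYC-repressed targets 5 are higher and 2 lower.

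Genes known to be induced by MYC serve ribosome production, nucleotide and polyamine synthesis and the cell cycle. They went both ways, with 12 higher, 17 lower and 12 without a call among 41 of 42 genes that were tested. Their median was -0.066 and their highest log2 fold change 0.33. Of those tested 70.7% had a call, against 57.7% of all genes averaging a log2 CPM of 1 or more. The largest changes were falls of E2F2, a cell cycle transcription factor, from 26.4 ± 0.247 to 18.4 ± 1.44 CPM (SD, n = 3, log2 fold change -0.52, edgeR FDR = 3.7e-07), of EIF4A1, a translation initiation helicase, by 0.42 (edgeR FDR = 1.9e-04), and of TERT, the catalytic subunit of telomerase. EIF4A1 had only 256 to 394 counts per library. Exon overlaps with other genes were examined for the members only, so reads that EIF4A1 may share with other genes were not assessed. TERT had 2.34 ± 0.251 CPM in OV3/SCR and 1.54 ± 0.237 CPM in OV3/COX1KD (SD, n = 3, log2 fold change -0.60, edgeR FDR = 0.00876), and its call was lost in 7 of 12 alternative settings, with FDR of up to 0.040.

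Genes known to be repressed by MYC were 5 higher and 2 lower of 8, with a median of 0.66 beside -0.0087 for all genes. That is 87.5% with a call, against 47.9% of all genes tested and 57.7% of those averaging a log2 CPM of 1 or more. The list is short and was chosen with earlier results of these data known, and repression by MYC was not tested. NDRG1, a stress and hypoxia response gene, rose from 109.8 ± 0.861 to 317.5 ± 7.89 CPM (SD, n = 3, log2 fold change 1.53, edgeR FDR = 3.9e-18). CDKN1A, the cell cycle inhibitor p21, rose from 1.39 ± 0.337 to 3.04 ± 0.339 CPM (SD, n = 3, log2 fold change 1.13, edgeR FDR = 3.8e-05). It was scarce, with 40, 43 and 26 counts in OV3/SCR and 67, 83 and 84 in OV3/COX1KD. CDKN2B, the cell cycle inhibitor p15, went the other way, falling from 32.9 ± 2.10 to 13.0 ± 0.872 CPM (SD, n = 3, log2 fold change -1.34, edgeR FDR = 1.1e-12), without overlap between conditions.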

How the data were processed

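Total RNA of 3 OV3/SCR and 3 OV3/COX1KD passages was sequenced (TruSeq, HiSeq). Reads were mapped by the authors to hg19 using TopHat2 (2.0 in the submitters' processing notes), and their HTSeq counts per gene were deposited without normalization. The annotation release and the use of strand are not given in the sources used here. How reads shared by overlapping genes were assigned is likewise not given.

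The analysis used edgeR 4.0.16 and limma 3.58.1 under R 4.3.3: TMM scaling, filterByExpr (17309 of 34811 genes), glmQLFit and glmQLFTest on condition alone, and Benjamini-Hochberg adjustment across all genes tested, with calls at an FDR under 0.01. Limits of 0.5 (log2) and 2.5-fold follow the study. CPM are TMM-normalized. A floor of 3 counts was 0.113 to 0.120 CPM per library, covering counting error only. No pair of libraries was a copy of another (chi-square per degree of freedom at least 1.84). Exon lengths, overlaps and positions came from GENCODE 44 lifted to GRCh37.

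The members and lists were chosen with earlier results of these data known. The text names all members, all genes of a list of 3 or fewer and otherwise the 3 with the largest change among called genes averaging a log2 CPM of 1 or more, the 3 genes most like MYC over the libraries, genes with exons overlapping a member, genes next to MYC, and PTGS1. The remaining epithelial markers, FAM84B, USF2, MITF and LDHA were chosen for naming after their values were seen. Scripts were tested on simulated data. Alternatives were RLE and total count scaling, no filter, a minimum of 10 counts per library, DESeq2 1.42.0, a replicate block and leaving out each library.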

Additional observations from a re-analysis of the deposited data

How the results depend on the processing

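Over 12 alternatives (other scalings and filters, DESeq2, the replicate number as a block, and each library left out), 117 of 120 values of the 10 genes kept their direction and their side of the FDR threshold, and 3 genes were higher and 3 lower under each. The 3 exceptions concern genes without a call: MYC had a log2 fold change of -0.015 with total count scaling (edgeR FDR = 0.77), and MXD3 ranged from -0.069 to 0.0085 when each library was left out, with 0.0085 without OV3/COX1KD replicate 3 and 0.0044 without OV3/SCR replicate 1. MYCL1 ranged from 1.44 to 1.57 over the libraries left out. MAX came closest to a call, at an FDR of 0.012 without OV3/COX1KD replicate 2. Of the 98 list genes, 49 to 67 were called when each library was left out, 55 in DESeq2 and 64 as reported. The 67 came from leaving out OV3/COX1KD replicate 2, which also gave 8989 calls over all genes. Leaving out any other library gave 7124 to 7401 such calls, against 8293 as reported. What sets this replicate apart was not tested. The total count scaling moved the median of all genes to -0.087.

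Libraries with the same replicate number deviated from their condition means with correlations across genes of 0.0015 to 0.048, against -0.042 to 0.020 for different numbers. Of the 6 libraries, 4 correlated best with their own number. These weak correlations do not settle whether the numbers pair the samples. The main fit left the numbers out, and a block on them was fitted as an alternative. With the replicate block 8233 genes were called, against 8293 without it, and 61 list genes. It changed the call of no member, and of the list genes E2F6, LDHA and TERT lost theirs (FDR = 0.0102, 0.0106 and 0.0126). Counts under about 100 per library limit MYCN, whose interval was the widest of the 10. They also limit list genes such as CDKN1A, TERT and MITF.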
